A study of Mus musculus with 4 samples.

Results

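The transcription factors that direct progenitor cells of the gut epithelium into hormone-secreting enteroendocrine cells were examined in stomach tissue of Hdc-/- and Hdc+/+ mice. Hdc is the gene of the histamine-making enzyme histidine decarboxylase. The members were a named list of 9 genes (Neurog3, Neurod1, Insm1, Nkx2-2, Pax4, Pax6, Isl1, Nkx6-3 and Fev), found by gene symbol. Of these, 8 of the 22180 genes compared had a probe set that the platform annotation assigns to 1 gene symbol, and each of the 8 had exactly 1 such probe set. Fev was named by no probe set of the annotation and was not analysed here. A further 3 probe sets carried the symbol of Neurod1, Nkx2-2 or Pax6 together with that of another gene and were not used.

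The study measured total RNA on 4 Affymetrix arrays, 2 from Hdc-/- stomachs and 2 from Hdc+/+ stomachs. All the mice were of the FVB strain and 1 year old, and no treatment beyond genotype is given in the labels. The sources used here do not state how the Hdc allele was made. The titles number the 2 arrays per genotype as biological replicates but name no animals, so the p-values reflect spread among these samples, and with so few arrays all values have limited precision. All values are log2 values, and all differences are Hdc-/- minus Hdc+/+.

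In the mouse gut, endocrine cells arise when a progenitor escapes Notch signalling, whose effector Hes1 represses basic helix-loop-helix (bHLH) genes, and switches on Neurog3. Neurog3 is expressed briefly and turns on later factors, among them Neurod1, Insm1, Nkx2-2, Pax4, Pax6, Isl1 and Fev, which stay on for longer and select the hormone that a cell makes. In the stomach these cells include the gastrin (G) cells of the antrum, the somatostatin (D) cells, the ghrelin cells and the enterochromaffin-like (ECL) cells that store histamine.

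Neurog3 and Neurod1 are shown with their upstream promoter sequence because they are successive bHLH steps of this cascade, and bHLH factors bind the E-box, written CANNTG. The stretches are the RefSeq bases before the annotated start in build GRCm38.p6, 5′ to 3′, on the plus strand for Neurog3 (chr10:62132840-62133089) and on the minus strand for Neurod1 (chr2:79456637-79456886), with E-boxes in capitals.
Neurog3: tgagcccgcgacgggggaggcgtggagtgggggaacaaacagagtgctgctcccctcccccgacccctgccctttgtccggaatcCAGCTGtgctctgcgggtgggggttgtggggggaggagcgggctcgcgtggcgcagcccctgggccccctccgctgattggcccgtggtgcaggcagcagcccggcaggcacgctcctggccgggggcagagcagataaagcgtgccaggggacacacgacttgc
Neurod1: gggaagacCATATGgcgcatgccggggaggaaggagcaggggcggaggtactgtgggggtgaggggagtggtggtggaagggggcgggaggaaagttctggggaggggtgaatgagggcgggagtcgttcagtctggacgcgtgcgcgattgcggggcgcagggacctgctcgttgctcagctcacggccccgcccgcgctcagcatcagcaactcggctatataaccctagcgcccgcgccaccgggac
Both hold 1 E-box, CAGCTG in Neurog3 and CATATG in Neurod1. The promoter table, whose windows run from 250 bases before to 50 bases after a start, held 7 windows for 6 of the 9 genes (Neurog3, Neurod1, Nkx2-2, Pax6, Isl1 and Fev). An E-box, which reads alike on both strands as CANNTG, was in 5 of these 7 windows, against 72.3% of all 32851 windows of that length. Nkx2-2 had 3 E-boxes in its window, a count reached by 17.6% of all windows, and Fev had 0. A match describes letters only, and the arrays read no promoter.

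Hdc and marker genes of other tissues were read on the same arrays. Hdc read 3.77 and 4.06 on the Hdc-/- arrays, against 3.99 and 3.82 on the Hdc+/+ arrays. Both Hdc+/+ values lay below the probe set median of their array (4.15 and 4.05), and its mean was at percentile 33.7 of all genes. The sources used here also do not say whether its probes lie in the altered part of the gene. Hdc was therefore no check of the genotype labels, on which every direction rests. All 12 of 12 gastric epithelial markers were measured, with Gkn1, Gkn2, Tff1 and Muc5ac between 11.76 and 13.35 on all 4 arrays. At an unadjusted p under 0.05, 3 of the 12 were higher on the Hdc-/- arrays and 0 lower, against 3.68% and 4.87% of all genes, and these were Cblif (1.07, limma adjusted p = 0.396), which encodes gastric intrinsic factor, Slc26a7 (0.96, limma adjusted p = 0.502), an anion exchanger gene of parietal cells, and the pepsinogen gene Pgc (0.64, limma adjusted p = 0.582). Forestomach squamous markers (11 of 12 measured) had negative differences in 11 of 11 cases, against 10174 of all 22180 genes. Of these 11 markers, 8 had an unadjusted p under 0.05, against 4.87% of all genes. Their median was -1.12, from -1.44 to -0.81 with 1 array left out, and the smallest p belonged to the keratin gene Krt4 (-2.15, limma adjusted p = 0.189) and the filaggrin gene Flg (-1.35, limma adjusted p = 0.253). Hepatocyte markers (11 of 12 measured) lay lower on both Hdc-/- arrays in 11 of 11 cases, against 17.6% of all genes. Their median difference was -4.03, and their log2 sums were 9.18 and 9.71 on the Hdc-/- arrays, against 12.3 and 13.8 on the Hdc+/+ arrays. The smallest p among them belonged to the albumin gene Alb (-7.02) and to Serpina1c (-7.61), both with a limma adjusted p of 0.0611. Pancreatic acinar genes (9 of 12 measured) had log2 sums of 12.2 and 12.3 on the Hdc-/- arrays, against 12.0 and 13.1 on the Hdc+/+ arrays, and Cpa1 read 10.20 on Hdc+/+ array 2 and between 4.04 and 4.47 on the others. The elastase gene Cela1, with the smallest p of that list, differed by -1.78 (limma adjusted p = 0.626). The sum is led by Clps, at 12.02 and 12.20 on the Hdc-/- arrays and 11.93 and 11.38 on the Hdc+/+ arrays. Since pancreatic islets also make most of these transcription factors, islet genes (11 of 12 measured) were read as well, with log2 sums of 7.74 and 7.92 on the Hdc-/- arrays, against 7.93 and 8.88 on the Hdc+/+ arrays. The median of the islet genes' values around their own means was -0.097 and 0.083 on the Hdc-/- arrays, against 0.11 and -0.038 on the Hdc+/+ arrays. On Hdc+/+ array 2 the sum was led by the glucose transporter gene Slc2a2, which liver also makes, at 8.13. Slc2a2 differed by -2.89 (limma adjusted p = 0.451) and Mafa, an islet transcription factor gene, by 0.35 (limma adjusted p = 0.708). Of the islet hormone genes Ins2, Gcg, Ppy and Iapp, Iapp alone was highest on that array and read 2.18 and 2.30 on the Hdc-/- arrays, against 2.07 and 2.32 on the Hdc+/+ arrays, while Ins2 read 3.50 and 4.22 on the Hdc-/- arrays, against 3.59 and 3.33 on the Hdc+/+ arrays. The part of these tissues in the values of the 8 factors was not tested.

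None of the 8 measured factors passed the test for a genotype difference over all genes. By limma with Benjamini-Hochberg adjustment over all genes, 0 of 8 passed in either direction at an adjusted p under 0.05, against 0.00451% of all genes, and the lowest adjusted p among the 8 was 0.661 (Nkx6-3). At an unadjusted p under 0.05, 0 of 8 lay higher, against 3.68% of all genes, and 0 of 8 lay lower, against 4.87%. The median of the 8 differences was 0.11, beside a median of 0.024 over all genes, and the median size of a difference regardless of sign was 0.15, beside 0.17 over all genes. A positive difference was found for 7 of the 8 factors and for 54.1% of all genes. The median difference of the 8 factors was 0.036 without Hdc-/- array 2, 0.064 without Hdc+/+ array 2 and 0.18 without Hdc-/- array 1, and 0 of 8 passed in each case.

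**Figure D1:**
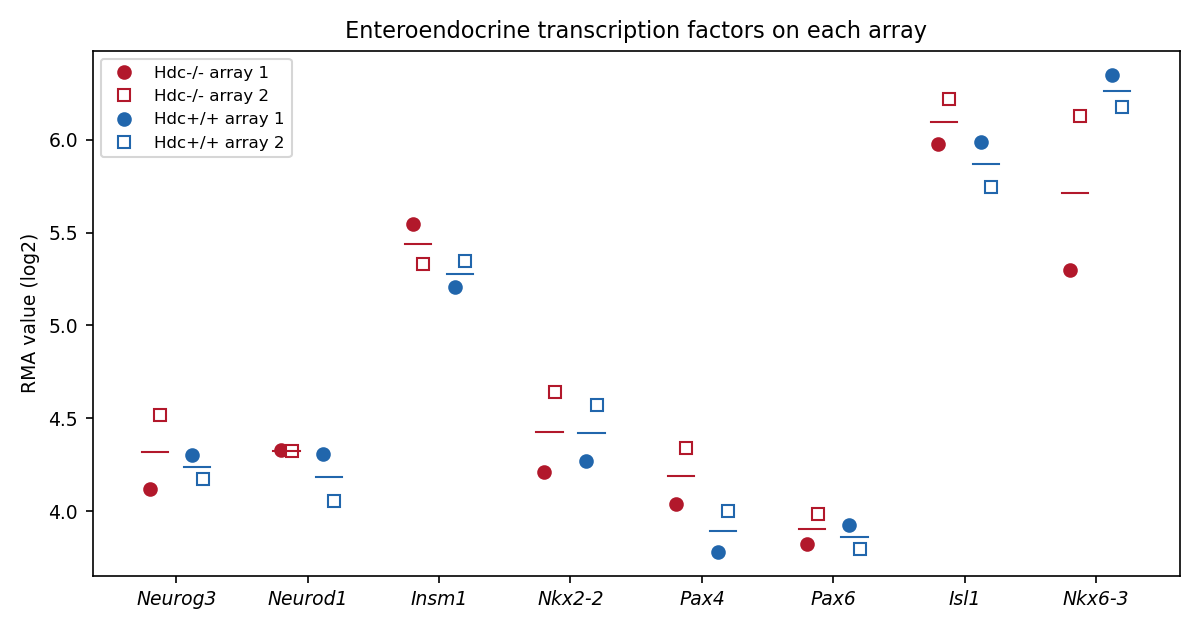
RMA values (log2) of the 8 measured factors on each array, with Hdc-/- arrays in red left of Hdc+/+ arrays in blue, array 1 as filled circles, array 2 as open squares and lines at the genotype means. The widest gap within a genotype is that of Nkx6-3, at 5.30 and 6.13 on the Hdc-/- arrays; levels of different genes come from different probes and are not comparable with each other.

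Neurog3, the bHLH factor that commits a cell to the endocrine fate and on which gastrin and somatostatin cells of the mouse stomach depend, read 4.12 and 4.52 on the Hdc-/- arrays 1 and 2, against 4.30 and 4.17 on the Hdc+/+ arrays. The Hdc-/- arrays held both its lowest and its highest value, so the groups overlapped. The difference was 0.082 (SE 0.20, n = 2 per group, limma adjusted p = 0.954), with a 95% interval from -0.41 to 0.58. It was -0.12 without Hdc-/- array 2 and 0.018 without Hdc+/+ array 2, and it was 0.28 without Hdc-/- array 1 and 0.15 without Hdc+/+ array 1.

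Neurod1, the bHLH factor downstream of Neurog3 that secretin and cholecystokinin cells of the mouse intestine need, read 4.33 and 4.32 on the Hdc-/- arrays, against 4.31 and 4.06 on the Hdc+/+ arrays. The Hdc-/- arrays were nearly equal and lay just above Hdc+/+ array 1, with array 2 lower. The difference was 0.14 (SE 0.17, limma adjusted p = 0.869, 95% interval -0.28 to 0.57), and it was 0.019 without Hdc+/+ array 2 and 0.27 without Hdc+/+ array 1.

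Insm1, a zinc-finger repressor that endocrine differentiation requires, read 5.55 and 5.33 on the Hdc-/- arrays, against 5.21 and 5.35 on the Hdc+/+ arrays. Hdc-/- array 1 was the highest and the other three values lay close together, with the groups overlapping. The difference was 0.16 (SE 0.17, limma adjusted p = 0.854, 95% interval -0.27 to 0.59), and it was 0.054 without Hdc-/- array 1 and 0.090 without Hdc+/+ array 1, but 0.27 without Hdc-/- array 2 and 0.23 without Hdc+/+ array 2.

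Nkx2-2, a homeodomain factor whose loss in mice raises the number of ghrelin cells in the intestine, read 4.21 and 4.64 on the Hdc-/- arrays, against 4.27 and 4.57 on the Hdc+/+ arrays. Array 2 was the higher one in both genotypes, and the groups overlapped almost fully. The difference was 0.0051 (SE 0.22, limma adjusted p = 0.998, 95% interval -0.54 to 0.55). Its sign turned to -0.21 without Hdc-/- array 2 and to -0.14 when Hdc+/+ array 1 was left out, while it was 0.22 without Hdc-/- array 1 and 0.15 without Hdc+/+ array 2.

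Pax4 and Pax6 encode related paired-domain factors, and in mice Pax4 is needed for serotonin and somatostatin cells of the antrum and Pax6 for gastrin and somatostatin cells. Pax4 read 4.04 and 4.34 on the Hdc-/- arrays, against 3.78 and 4.002 on the Hdc+/+ arrays. Both Hdc-/- values were above both Hdc+/+ ones, the nearest pair being 0.037 apart. The Pax4 difference was 0.30 (SE 0.19, limma adjusted p = 0.717, 95% interval -0.18 to 0.78), the largest positive one of the 8, and it was 0.15 without Hdc-/- array 2 and 0.19 with Hdc+/+ array 1 left out, but 0.45 without Hdc-/- array 1 and 0.41 without Hdc+/+ array 2.

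Pax6 read 3.82 and 3.98 on the Hdc-/- arrays, against 3.92 and 3.797 on the Hdc+/+ arrays. The groups overlapped, and its 4 values spanned less than those of any other factor here. The Pax6 difference was 0.042 (SE 0.17, limma adjusted p = 0.974, 95% interval -0.37 to 0.46), and it was -0.037 without Hdc-/- array 2 and -0.022 when Hdc+/+ array 2 was left out, but 0.12 without Hdc-/- array 1 and 0.11 without Hdc+/+ array 1.

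Isl1, a LIM-homeodomain factor of endocrine cells that is also made in neurons and in the muscle layer of the pylorus, read 5.98 and 6.22 on the Hdc-/- arrays, against 5.99 and 5.75 on the Hdc+/+ arrays. Hdc-/- array 2 was highest and Hdc+/+ array 2 lowest, with the array 1 values of the genotypes nearly equal. The difference was 0.23 (SE 0.19, limma adjusted p = 0.784, 95% interval -0.23 to 0.69), and it was 0.11 without either array 2 and 0.35 without either array 1. Marker genes of enteric neurons and glia, with 12 of 14 measured, had a median difference of 0.046, from -0.025 to 0.16 with 1 array left out. Smooth muscle genes, with 14 of 14 measured, had one of -0.24, from -0.25 to -0.13 with 1 array left out. The smallest p belonged to the receptor gene Ret (0.83, limma adjusted p = 0.451) and Stmn2 (-0.46, limma adjusted p = 0.545) among the neuron and glia genes, and to Cnn1 (-0.50, limma adjusted p = 0.525) and Actg2 (-0.49, limma adjusted p = 0.586) among those of muscle. The log2 of the summed linear values of the neuron and glia genes was 8.26 and 8.40 on the Hdc-/- arrays and 8.19 and 8.04 on the Hdc+/+ arrays, highest and lowest on the same arrays as Isl1. The sums of the endocrine hormone genes, described below, shared that order, at 10.36 and 11.55 on the Hdc-/- arrays and 10.50 and 10.24 on the Hdc+/+ arrays. They were led by Ghrl, at 9.74 and 10.88 on the Hdc-/- arrays and 9.76 and 9.51 on the Hdc+/+ arrays. The median of the hormone genes' values around their own means did not share it. That median was -0.097 and 0.068 on the Hdc-/- arrays, against 0.0045 and 0.098 on the Hdc+/+ arrays. The granule and amine sums were also highest on Hdc-/- array 2 (10.67) but lowest on Hdc+/+ array 1 (9.95). On the Hdc-/- arrays these sums were led by Chga, at 9.05 and 9.58. The median of the granule and amine genes' values around their own means had another order. It was 0.14 and 0.099 on the Hdc-/- arrays, against 0.019 and -0.20 on the Hdc+/+ arrays. The smooth muscle sums were 11.76 and 11.76 on the Hdc-/- arrays and 11.95 and 12.08 on the Hdc+/+ arrays, highest where Isl1 was lowest. The part of these cells in the Isl1 values was not tested.

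Nkx6-3, a homeodomain factor of the antrum that gastrin cells need in mice, had the largest difference of the 8 and the single negative one. It read 5.30 and 6.13 on the Hdc-/- arrays, against 6.35 and 6.18 on the Hdc+/+ arrays. Hdc-/- array 1 stood apart from the other three, and Hdc-/- array 2 lay 0.048 below the nearer Hdc+/+ value. The difference was -0.55 (SE 0.30, limma adjusted p = 0.661, 95% interval -1.29 to 0.19), which corresponds to 0.683-fold. It was -0.14 without Hdc-/- array 1 and, with an adjusted p of 0.480 by limma, -0.97 when Hdc-/- array 2 was left out.

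Gast, the gene of the hormone gastrin made by antral G cells, read 5.18 and 6.87 on the Hdc-/- arrays, against 6.996 and 6.70 on the Hdc+/+ arrays. Like Nkx6-3 it was lowest on Hdc-/- array 1, and its groups overlapped. The Gast difference was -0.82 (SE 0.54, limma adjusted p = 0.723). Pdx1, a homeodomain factor of antrum and duodenum, read 4.42 and 4.69 on the Hdc-/- arrays, against 4.72 and 4.97 on the Hdc+/+ arrays, and was also lowest on Hdc-/- array 1. The whole antral list, with 9 of 9 genes measured, did not share that order. The log2 of its summed linear values was 12.3 on Hdc-/- array 1 and 10.4 on array 2, against 10.1 and 10.6 on the Hdc+/+ arrays, led by the mucin gene Muc6 at 11.94 on Hdc-/- array 1. Muc6 was also counted among the gastric epithelial markers, so the sum is no measure of antral tissue alone. The median of the 9 genes' values around their own means, which no single gene leads, was also highest on Hdc-/- array 1. It was 0.20 and -0.0092 on the Hdc-/- arrays, against -0.43 and 0.12 on the Hdc+/+ arrays. The smallest p of the list belonged to Sox9, an HMG-box factor gene of gland progenitors, at 8.18 and 7.03 on the Hdc-/- arrays, against 5.86 and 6.06 on the Hdc+/+ arrays (difference 1.65, SE 0.38, limma adjusted p = 0.378), and to the chemokine gene Cxcl17 (0.48, limma adjusted p = 0.617). The part of antral tissue content in the Nkx6-3 values was not tested, and in bulk tissue fewer cells of a type and less RNA per cell cannot be told apart.

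Among 179 other genes on the lists compared here, the 3 whose values around their own mean lay closest to those of Nkx6-3 over the 4 arrays were Muc5ac (Euclidean distance 0.223), Actg2 (0.310) and Insm2 (0.342). Muc5ac, the main mucin gene of surface pit cells, read 11.76 and 12.44 on the Hdc-/- arrays, against 12.55 and 12.36 on the Hdc+/+ arrays. Actg2 encodes a smooth muscle actin and Insm2 a zinc-finger factor related to Insm1. With 4 points per gene this likeness is a description.

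Set against the spread between arrays, all 8 differences were smaller than the wider of the gaps between the 2 arrays of a genotype, as were those of 16311 of the 22180 genes. The median gap within a genotype, regardless of sign, was 0.27 between the Hdc-/- arrays and 0.20 between the Hdc+/+ arrays for the 8 factors, beside 0.23 and 0.18 over all genes. Hdc-/- array 2 read above array 1 for 6 of the 8, all but Neurod1 and Insm1, and for 11695 of the 22180 genes. The Hdc+/+ arrays had array 2 above array 1 for 3 of the 8 (Insm1, Nkx2-2 and Pax4), and for 9981 of all genes. The groups did not overlap for Neurod1 and Pax4, which were higher on the Hdc-/- arrays (2 of 8, against 21.5% of all genes), and for Nkx6-3, which was lower (1 of 8, against 17.6%). For a single gene, 2 arrays against 2 allow an exact two-sided permutation p of 0.333 at the lowest.

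**Figure D2:**
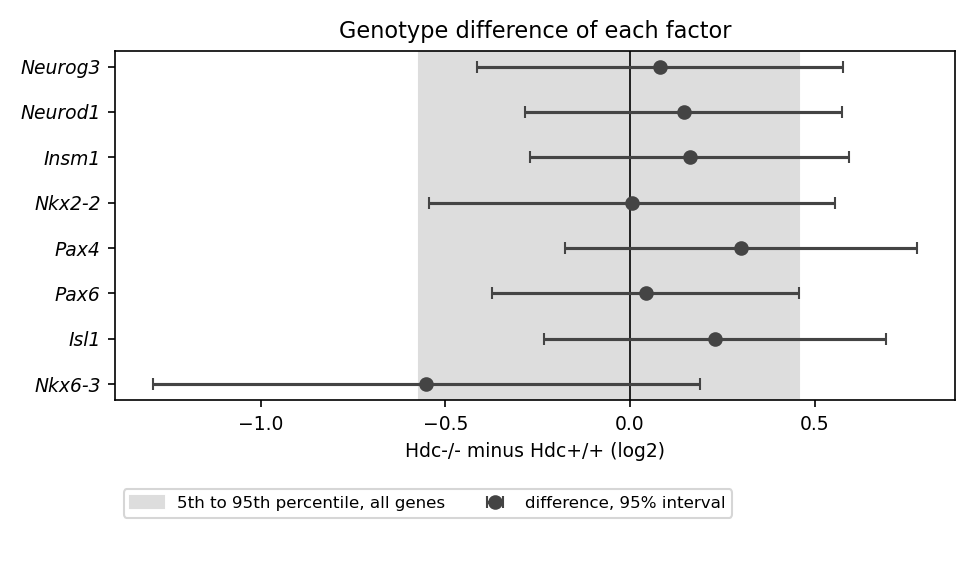
Hdc-/- minus Hdc+/+ difference (log2) of each factor as a point with its 95% interval from the moderated standard error, n = 2 arrays per genotype, over a grey band from the 5th to the 95th percentile of all genes (-0.57 to 0.46). All 8 points lie inside the band and all 8 intervals cross 0.

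The intervals show what sizes of change these arrays leave possible. All 8 intervals included no change. For 7 of the 8 they stayed within 2-fold in either direction, running from 0.686-fold (Nkx2-2) to 1.71-fold (Pax4), and for Nkx6-3 they ran from 0.409-fold to 1.14-fold. An adjusted p above the threshold does not show that the genotypes are equal. The mean values of 5 factors (Neurog3, Neurod1, Nkx2-2, Pax4 and Pax6) were among the dimmer 50% of genes, where RMA values can understate a fold change. Insm1, Isl1 and Nkx6-3 were among the brighter 50%, and 0 of these 3 passed with the dimmer 50% left out of the test.

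**Figure D3:**
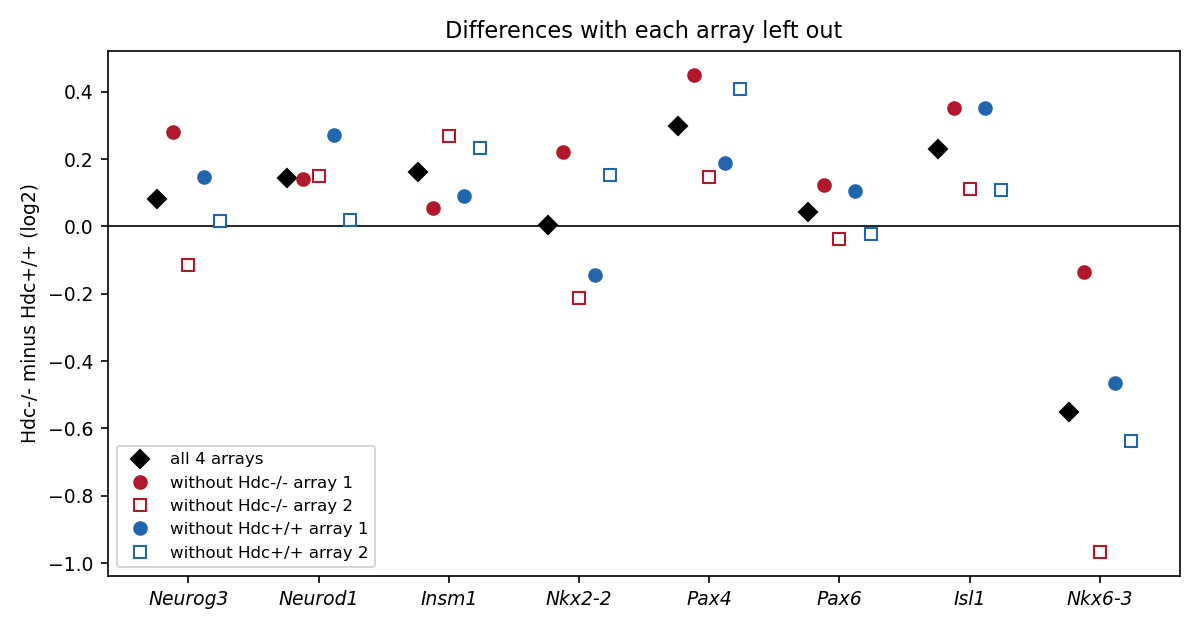
Hdc-/- minus Hdc+/+ difference (log2) of each factor with all 4 arrays (black diamonds) and with each array left out (red for an Hdc-/- array, blue for an Hdc+/+ array, circles for array 1, squares for array 2). Nkx6-3 moves furthest, between -0.97 and -0.14, and Nkx2-2, Pax6 and Neurog3 lie on both sides of 0.

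Other transcription factors of the endocrine lineage were read from the same fit. In that fit 1 of the 22180 genes passed (0.00451%), so 0 passing says little about a list. Of 21 listed, 18 were measured, and 0 passed in either direction by limma over all genes. At an unadjusted p under 0.05, 0 of the 18 were higher and 0 lower, against 3.68% and 4.87% of all genes. Their median difference was 0.085, and it was 0.0069 without Hdc+/+ array 2. Both Hdc-/- values were above both Hdc+/+ values for 7 of the 18 (38.9%, against 21.5% of all genes) and below them for 1 (5.56%, against 17.6%). Sox4, an HMG-box factor that acts early in endocrine progenitors and also in other cells, read 6.70 and 5.62 on the Hdc-/- arrays, against 5.12 and 5.39 on the Hdc+/+ arrays (difference 0.91, SE 0.37, limma adjusted p = 0.584). St18, a zinc-finger factor of the Myt1 family, read 4.64 and 4.11 on the Hdc-/- arrays, against 3.72 and 3.92 on the Hdc+/+ arrays (difference 0.55, SE 0.23, limma adjusted p = 0.591). In both, Hdc-/- array 1 was the highest and the groups did not overlap.

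The Notch pathway and the repressors of endocrine fate, upstream of Neurog3, had 19 of 19 genes measured and 0 passing in either direction over all genes. At an unadjusted p under 0.05, 1 of the 19 was higher and 1 lower, against 3.68% and 4.87% of all genes. The median difference was 0.14, and it was 0.065 without Hdc+/+ array 2. Jag2, a Notch ligand gene, read 4.57 and 4.55 on the Hdc-/- arrays, against 5.37 and 5.06 on the Hdc+/+ arrays (difference -0.65, SE 0.18, limma adjusted p = 0.451). Id3, an inhibitor of bHLH factors, read 7.45 and 7.37 on the Hdc-/- arrays, against 7.01 and 6.86 on the Hdc+/+ arrays (difference 0.48, SE 0.16, limma adjusted p = 0.525). Hes1, the Notch effector that represses Neurog3, read 8.40 and 7.80 on the Hdc-/- arrays, against 8.05 and 7.54 on the Hdc+/+ arrays. The Hes1 groups overlapped, with array 1 the higher in each genotype.

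Downstream are the hormone genes. Of 15 listed, 14 were measured and 0 passed in either direction over all genes, and an unadjusted p under 0.05 was reached by 0 higher and 1 lower, against 3.68% and 4.87% of all genes. Their median difference was 0.011, near 0 with no steady sign: it was 0.026 without Hdc-/- array 1, -0.11 without Hdc-/- array 2, -0.12 without Hdc+/+ array 1, -0.077 without Hdc+/+ array 2 and -0.18 without the dimmer 50% of genes. Hdc-/- array 1 minus array 2 was -1.70 for Gast, -1.78 for Sst and -1.13 for Ghrl, and between -0.58 and 0.34 for the other 11. Sst, the somatostatin gene, read 7.85 and 9.63 on the Hdc-/- arrays, against 7.84 and 7.08 on the Hdc+/+ arrays. The Sst difference was 1.28 (SE 0.60, limma adjusted p = 0.624), the largest of the hormone list, with the nearest values of the groups 0.014 apart. Ghrl, the ghrelin gene, read 9.74 and 10.88 on the Hdc-/- arrays, against 9.76 and 9.51 on the Hdc+/+ arrays (difference 0.67, SE 0.38, limma adjusted p = 0.679). Like Gast, both read higher on Hdc-/- array 2 than on array 1, as did 6 of the 8 transcription factors and 11695 of the 22180 genes. The 2 hormone genes with the smallest p were Sct (secretin), at -0.59 (SE 0.22, limma adjusted p = 0.562), and Gip, at -0.43 (SE 0.18, limma adjusted p = 0.586). Both are products of intestinal endocrine cells, and intestinal epithelial marker genes had a median difference of -1.23 on the same arrays, -1.999 without Hdc+/+ array 1 and -0.43 without Hdc+/+ array 2. In that list the smallest p belonged to Fabp2 (-3.92, limma adjusted p = 0.247), a fatty acid binding protein gene, and to the apolipoprotein gene Apob (-3.96, limma adjusted p = 0.256). The part of intestinal tissue in the Sct and Gip values was not tested. Hepatocyte markers, which include other apolipoprotein genes, had a median difference of -4.03 on the same arrays. The part of liver tissue in the Apob values was not tested either.

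The granule and amine genes of mature endocrine cells held differences of up to 1.89, though 0 of the 20 measured (of 21 listed) passed over all genes. At an unadjusted p under 0.05, 4 of the 20 were higher and 0 lower, against 3.68% and 4.87% of all genes, namely Chga, Slc18a2, Pcsk1 and Chgb. The median difference was 0.15, and it was -0.0079 without Hdc+/+ array 2 and 0.28 without Hdc+/+ array 1. Chga, which encodes the granule protein chromogranin A, differed by 1.89 (SE 0.23, limma adjusted p = 0.247), and Slc18a2, the vesicular monoamine transporter gene, by 1.42 (SE 0.19, limma adjusted p = 0.247). Pcsk1, the gene of a prohormone convertase, read 4.71 and 4.25 on the Hdc-/- arrays, against 3.55 and 3.68 on the Hdc+/+ arrays (difference 0.87, SE 0.21, limma adjusted p = 0.396). Chgb, which encodes chromogranin B, read 6.67 and 6.69 on the Hdc-/- arrays, against 5.26 and 6.27 on the Hdc+/+ arrays (difference 0.92, SE 0.34, limma adjusted p = 0.555). The highest upper bound among the 8 transcription factors was 0.78 (Pax4), and whether the factors differed from these genes was not tested.

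**Figure D4:**
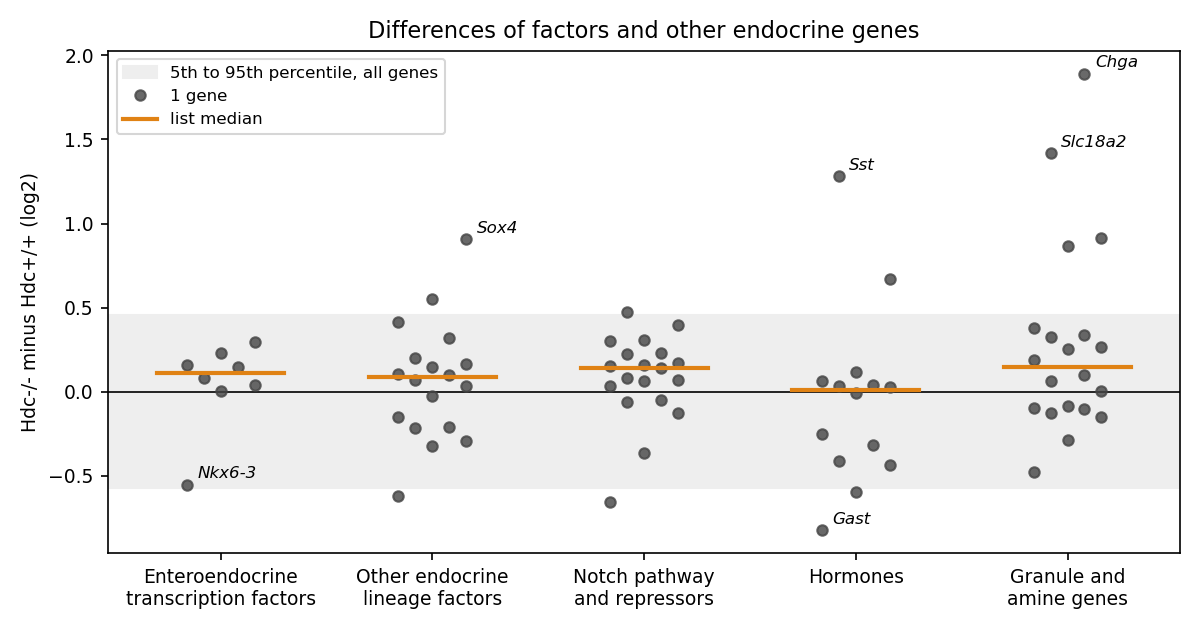
Hdc-/- minus Hdc+/+ differences (log2), 1 point per gene, for the 8 factors and 4 related lists, with list medians as orange lines and a grey band from the 5th to the 95th percentile of all genes. The factors lie between -0.55 and 0.30, while the granule and amine genes reach 1.89 (Chga).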

How the data were processed

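Total RNA of stomach tissue, extracted with Trizol and biotin-labelled per the labels' protocols, was hybridised to 4 arrays. The deposited values are log2 probe set values that the authors normalized with RMA. The submitters' processing notes give this and list oligo and Affymetrix Power Tools with no version, and no source used here states the summary level, filters or array genome build. The table held 41345 probe sets, with array medians of 4.05 to 4.15. The 23521 with 1 gene symbol were used (1814 had several and 16010 none), and a gene with several probe sets was read from the one with the highest mean over the 4 arrays, giving 22180 genes. No background values were used, so no gene was called undetected.

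The Hdc-/- and Hdc+/+ arrays were compared in limma (version 3.58.1, R 4.3.3) by lmFit and eBayes without covariates, with 2 residual and 3.62 prior degrees of freedom. P-values were adjusted by Benjamini-Hochberg over all genes, with 0.05 as the threshold, and 95% intervals use the moderated standard error (SE). The fit was tested on simulated data. Alternatives changed the dim filter, probe set rule, normalization, prior, replicate block, arrays, features and threshold. The members and lists were chosen with earlier results of these data known. Named are the 9 members, Hdc and, where a list's genes are described, the 2 with the smallest p. Gast, Sst, Ghrl, Pdx1, Muc6, Hes1, Pcsk1, Chgb, Ins2, Iapp, Gcg, Ppy, Cpa1, Gkn1, Gkn2, Tff1 and Pgc were named after their values were seen, and Muc5ac, Actg2 and Insm2 by the likeness to Nkx6-3. Promoter windows are from RefSeq, build GRCm38.p6.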

Additional observations from a re-analysis of the deposited data

How the results depend on the processing

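No call on a factor changed with the processing tried: 0 factors passed under each of the 15 alternatives (without the dimmest 50% of genes, 3 of the 8 were tested). Few of all genes passed under most of these, so 0 factors passing is no measure of stability. The alternative with a log2 difference of at least 1 could call no factor, the largest difference being -0.55 (Nkx6-3). Of 115 differences of single factors under an alternative, 109 kept their direction and 6 turned, all of factors whose difference over 4 arrays was at most 0.082: Nkx2-2 (-0.025 after cyclic loess, and from -0.21 to 0.22 with 1 array left out), Pax6 (-0.037 to 0.12) and Neurog3 (-0.12 to 0.28). Many of the 109 could not turn. The dim filters, probe set rule, prior, blocks, features and threshold leave a factor's difference as it is. Only another normalization or a left-out array can change it, so the 109 is no measure of stability. With 1 array left out, the spread of the lone array was assumed equal to that of the complete genotype, and the median difference of the factors ran from 0.036 to 0.18. Over all genes the counts moved more. Limma called 1 gene higher and 0 lower, 3 and 2 with a trended and robust prior, 0 higher when every probe set was tested, and 107 and 372 at an unadjusted p under 0.05 with a log2 difference of at least 1. With 1 array left out it called 0 to 3 higher and 0 to 158 lower, the 158 without Hdc+/+ array 1. The cause was not tested. With the replicate number as a block it called 1 gene higher and 6 lower. Deviations of same-numbered samples from their group means had a weak negative correlation over genes (-0.12). This gave no sign that the numbers pair the samples, but 1 correlation from 4 arrays cannot exclude it. A crossed pairing, chosen after seeing the data, gave 0 higher and 0 lower. Neither block called a factor. Of 182 medians of the other 14 lists, 25 moved by more than the spread between arrays.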
